A study of Mus musculus with 8 samples.

Results

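The genes described here are the collagen genes and a small set of matrix and stellate cell genes in the liver of mice on a high fat diet (HFD). They were chosen by name, with earlier results of these data known. Every protein-coding gene of the deposited count table was taken whose symbol is that of a collagen chain (Col, a number, a, a number), together with *Acta2*, *Timp1*, *Tgfb1*, *Pdgfrb*, *Des*, *Lox*, *Lum*, *Dcn* and *Dpt*. This gave 43 genes, 34 collagen genes and 9 others, of the 13939 protein-coding genes among the 18095 genes of the table. Gene expression was measured by RNA-seq in whole livers of male mice at 12 weeks of age, 4 of the HFD WT and 4 of the HFD Inpp4b-/- group. The mutant mice are homozygous for a disrupted *Inpp4b*, which encodes a lipid phosphatase that acts on phosphoinositides. The dams of both genotypes received the HFD before mating, in pregnancy and in lactation, and the male pups stayed on it, so the comparison is of genotype on one diet. The labels give C57BL/6 as the strain background of both groups, while the study's methods describe breeding into FVB. Nothing more about litters or the origin of the WT mice was taken from the labels, and p-values measure the spread between these 8 libraries.

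Collagens are secreted or membrane proteins built from 3 chains wound into a triple helix. In the liver, hepatic stellate cells store retinoids at rest and, once activated, become contractile cells that express *Acta2* and deposit the fibrillar collagens I and III of scar tissue. Transforming growth factor beta (*Tgfb1*) and platelet-derived growth factor (received by *Pdgfrb*) are the classical activating and mitogenic signals for these cells, and *Timp1* encodes an inhibitor of the proteases that degrade matrix. Portal fibroblasts, smooth muscle, sinusoidal endothelium and hepatocytes also make matrix proteins.

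The libraries held 25893430 to 31427831 counts in HFD WT and 32738435 to 36662531 counts in HFD Inpp4b-/-. Reads of *Inpp4b* itself numbered 33, 10, 9 and 14 in the libraries labelled HFD Inpp4b-/- and 6, 20, 5 and 8 in those labelled HFD WT, both in order of replicate number, as are all lists of values here. The targeted gene had no fewer reads in the mutant group (log2 ratio of mean CPM 0.49, two-sided exact permutation test, p = 0.486), and each direction given below rests on the labels. CPM is the count of a gene per 1e+06 normalized counts of its library. Levels of different genes were compared as CPM per kilobase of exon.

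Most collagen reads in these livers were of 1 gene. *Col18a1* encodes the chain of collagen XVIII, a basement membrane collagen whose fragment is endostatin, and it took 68.9 to 74.3% of all collagen counts in the 8 libraries. All 34 collagen genes together took 0.123 to 0.175% of the counts of a library. *Slc19a1* overlaps it on the opposite strand over 8825 bases, and reads in that stretch cannot be assigned here without the strand setting of the counting. The mean level of *Col18a1* over the 8 libraries was 148 CPM per kilobase. The next collagen, *Col27a1*, stood at 10.1 CPM per kilobase, followed by *Col4a2* (7.84), *Col14a1* (6.28), *Col4a1* (6.15), *Col5a3* (5.01) and *Col3a1* (3.15). The chains of collagen I, the main collagen of fibrous scar, were lower, at 1.37 CPM per kilobase for *Col1a1* and 1.10 for *Col1a2*. Lengths are those of all annotated exons of a gene together, 6563 bases for *Col1a1* and 12426 for *Col1a2*. Since *Col1a2* had more counts than *Col1a1* in every library, the order of close levels depends on the length used. Of the other genes, the proteoglycan genes *Dcn* (16.9) and *Lum* (2.99) had the highest levels, and the activation marker *Acta2* had 0.97 CPM per kilobase. *Timp1* was at 0.21 CPM per kilobase and *Lox*, the collagen cross-linking enzyme, at 0.060. Of the 43 genes, 27 share bases with another annotated gene, 5 of them with a protein-coding one. In bulk tissue, fewer cells of a type and less RNA per cell cannot be told apart.

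**Figure D1:**
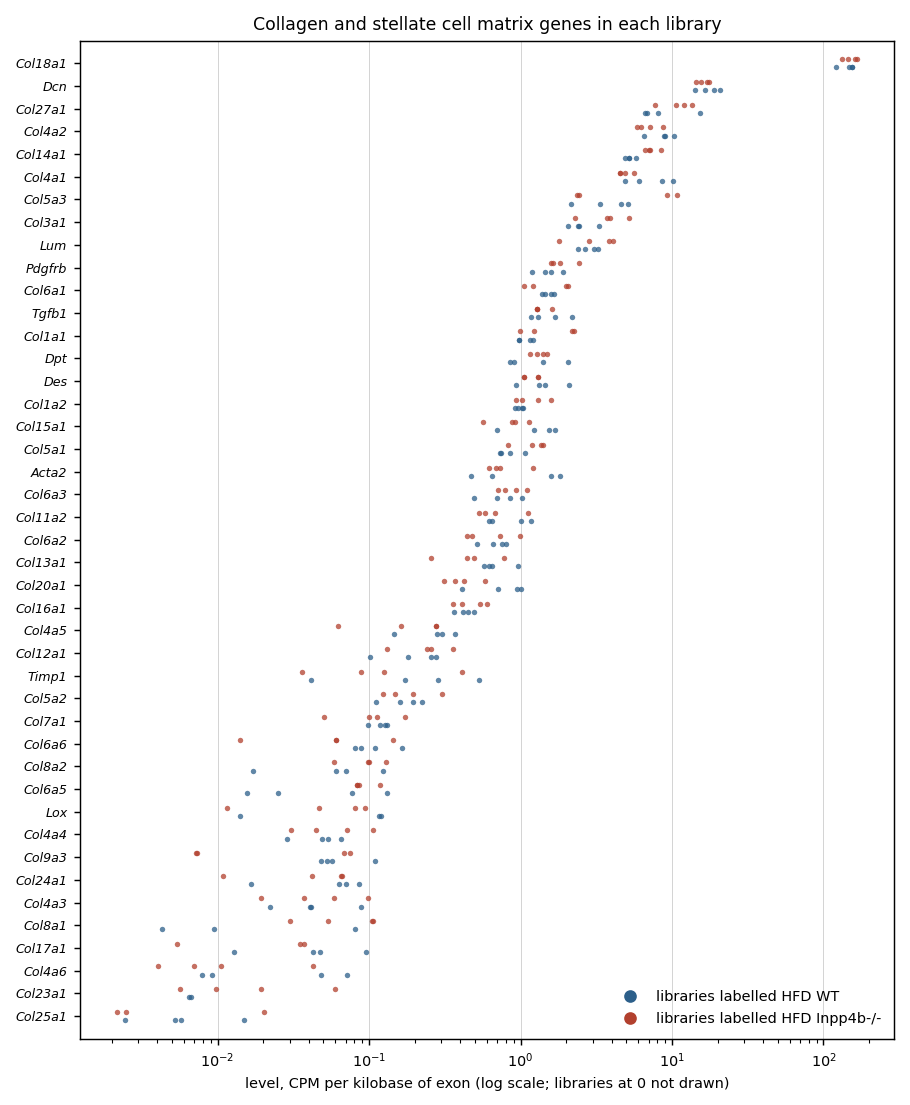
Level of each of the 43 genes in each library, in CPM per kilobase of exon on a log axis, with genes ordered by their mean over the 8 libraries. Blue points are libraries labelled HFD WT and red points libraries labelled HFD Inpp4b-/-. *Col18a1* stands alone at the top at 148 CPM per kilobase, and the points of both genotypes intermix for most genes.

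For 33 of the 43 genes a promoter sequence was found in RefSeq (GRCm38.p6). *Col14a1*, the 1 gene past the thresholds used below, and *Col1a1* were among those without one. The 250 bases before the start are shown for *Col18a1*, the most abundant collagen, and for *Col3a1* and *Col5a1*. The last 2 are fibrillar chains that lay higher in the libraries labelled HFD Inpp4b-/- but did not pass. Capitals mark the letters of the 3 motifs searched on both strands. The first is the GC box, spelled GGGCGG. The second is the CCAAT box, spelled as its name says. The last is the TATA box, spelled TATAAA. No match overlaps that of another motif in the windows shown. The *Col18a1* window is chr10:77166531-77166780 on the minus strand, that of *Col3a1* is chr1:45311288-45311537 on the plus strand, and that of *Col5a1* is chr2:27886175-27886424 on the plus strand.
Col18a1: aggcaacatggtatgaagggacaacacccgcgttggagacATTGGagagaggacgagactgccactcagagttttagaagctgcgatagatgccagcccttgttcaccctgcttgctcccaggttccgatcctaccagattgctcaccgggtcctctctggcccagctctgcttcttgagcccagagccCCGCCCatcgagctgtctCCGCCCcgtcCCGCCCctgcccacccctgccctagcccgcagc
Col3a1: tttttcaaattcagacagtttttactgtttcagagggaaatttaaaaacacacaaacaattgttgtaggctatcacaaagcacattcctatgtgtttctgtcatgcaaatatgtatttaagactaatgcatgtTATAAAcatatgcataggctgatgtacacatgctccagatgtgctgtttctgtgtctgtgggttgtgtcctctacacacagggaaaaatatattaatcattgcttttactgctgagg
Col5a1: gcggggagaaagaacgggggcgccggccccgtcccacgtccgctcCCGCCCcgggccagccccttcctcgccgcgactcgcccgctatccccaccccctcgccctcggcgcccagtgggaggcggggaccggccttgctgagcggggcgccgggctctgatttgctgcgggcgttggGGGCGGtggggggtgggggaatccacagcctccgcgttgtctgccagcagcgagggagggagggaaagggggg
The 3 windows differ in composition. The *Col3a1* window had 35.2% G and C and 1 TATA box but no GC box, while that of *Col5a1* had 76.4% G and C and 2 GC boxes, and that of *Col18a1* had 62.0% G and C with 3 GC boxes and 1 CCAAT box. A second RefSeq start of *Col18a1* had none of these letters in its window. Over all 32851 windows of this length, 32.7% held a GC box, 33.8% a CCAAT box and 12.4% a TATA box. Of the 35 windows of the genes described here, 22 held a GC box (62.9%), 11 a CCAAT box (31.4%) and 4 a TATA box (11.4%). The 32851 windows were not limited to protein-coding genes of the count table, as these 35 were, so the shares are not of like sets.

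Between the genotypes, 37 of the 43 genes had enough reads to be tested in a fit over all 14866 tested genes, and 6 lay below the filter on low counts. One of the 37 (2.7%) passed an adjusted p under 0.10 with a fold change over 1.3, against 1.17% of all tested genes. It was *Col14a1*, which was higher in the libraries labelled HFD Inpp4b-/-, a direction in which 0.552% of all tested genes passed. At an unadjusted p under 0.05 there were 6 of 37 genes (16.2%, against 13.9% of all tested genes). Of these, 4 lay higher in the libraries labelled HFD Inpp4b-/- (10.8%, against 6.80% of all tested genes), namely *Col14a1*, *Col1a1*, *Col3a1* and *Col5a1*, and 2 lay lower (5.41%, against 7.14%), namely *Col4a1* and *Col20a1*. The groups did not overlap in CPM for 1 of 37 genes (2.7%), *Col14a1*, against 8.72% of all tested genes. The share at an unadjusted p under 0.05 was thus near that of all tested genes, and the share without overlap was not above it.

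The median log2 fold change of the 37 genes was 0.074, with 21 above and 16 below 0, beside 0.0027 over all tested genes. The 29 tested collagen genes had a median of 0.15 (18 above 0, 11 below). The 8 tested genes outside the collagen family had a median of -0.099 (3 above 0, 5 below), and none of them passed. By class, 7 of 9 fibrillar collagen genes lay above 0 (median 0.30), as did 5 of 7 beaded filament and network collagen genes (0.21) and 3 of 4 genes of the FACIT collagens (0.21), which attach to the surface of fibrils. The basement membrane collagens had 3 of 7 above 0 (median -0.30), and both tested transmembrane and other collagens lay below 0 (-0.32).

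**Figure D2:**
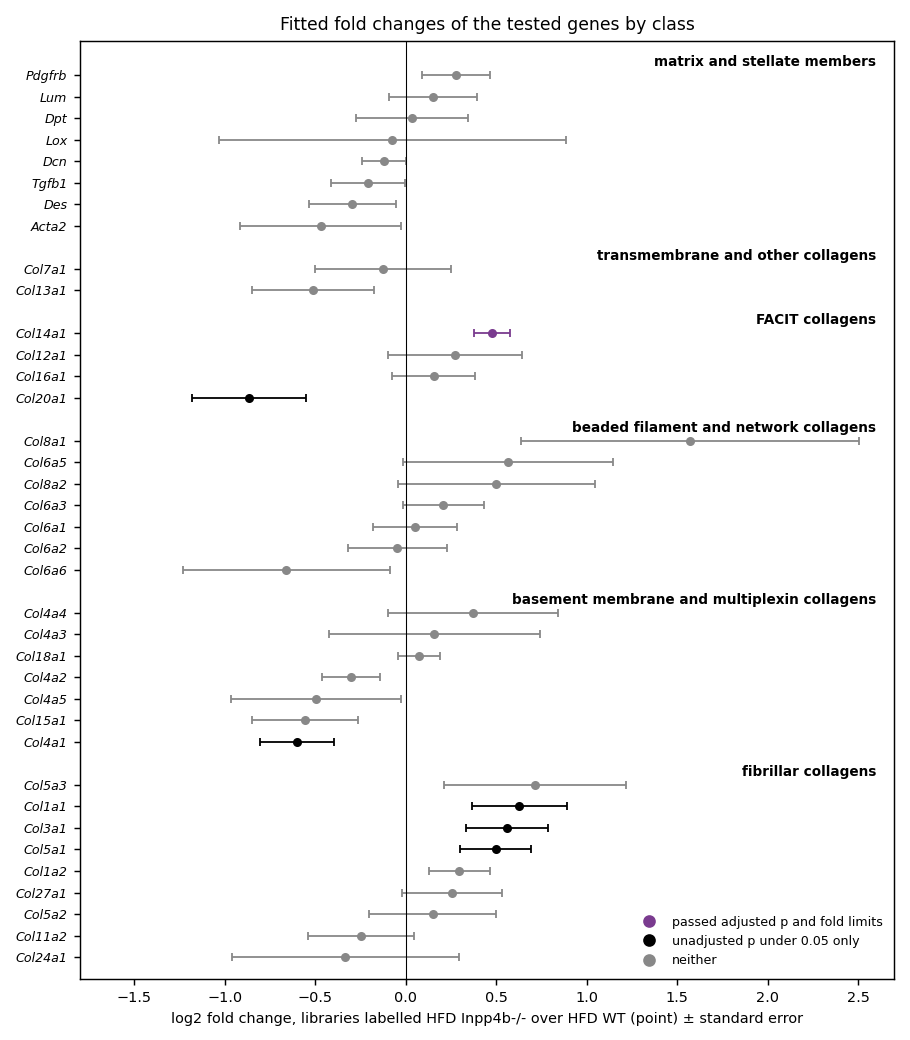
Fitted log2 fold change of the 37 tested genes by class, with the libraries labelled HFD Inpp4b-/- over those labelled HFD WT on the horizontal axis and standard errors as bars. Purple marks the gene that passed both limits (*Col14a1*), black the genes with only an unadjusted p under 0.05 and grey the others. The fibrillar genes lie mostly to the right of 0, and *Col4a1*, *Col15a1* and *Col4a2* to the left.

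*Col14a1* encodes the chain of collagen XIV, a FACIT collagen on the surface of interstitial collagen fibrils. It lies on chromosome 15 of GRCm38 from 55307750 to 55520803. Its CPM was 59.4, 46.3, 49.1 and 50.4 in the libraries labelled HFD Inpp4b-/- (51.3 ± 5.65, SD, n = 4) and 36.4, 40.6, 34.2 and 36.3 in those labelled HFD WT (36.9 ± 2.66, SD, n = 4). The lowest library labelled HFD Inpp4b-/- thus lay above the highest of the other group. The log2 fold change was 0.48 (SE 0.099), a fold of 1.39, with an adjusted p of 0.0804 in edgeR's quasi-likelihood test. The adjusted p depended on the libraries used. It was 0.0711 without HFD WT replicate 2 and 0.122 to 0.200 when any library other than HFD WT replicate 2 was left out, which ended the call each time, while the log2 fold change stayed between 0.40 and 0.52. Antisense and pseudogene transcripts overlap the locus, and the strand setting of the counting is not given in the sources used here.

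The other FACIT collagen with an unadjusted p under 0.05 was *Col20a1*, on the opposite side of 0. Its CPM was 2.19, 1.89, 1.61 and 2.98 in the libraries labelled HFD Inpp4b-/- and 4.87, 5.20, 2.12 and 3.65 in those labelled HFD WT (log2 fold change -0.87, SE 0.32, adjusted p = 0.267). HFD WT replicate 3 lay within the range of the libraries labelled HFD Inpp4b-/-. The 2 remaining tested FACIT genes, *Col12a1* and *Col16a1*, had log2 fold changes of 0.27 and 0.15 with adjusted p of at least 0.787.

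The fibrillar collagens I, III and V form the mixed fibrils of interstitial matrix, with collagen V as the chain that regulates fibril diameter. *Col3a1* had a CPM of 38.0, 22.4, 50.7 and 36.5 in the libraries labelled HFD Inpp4b-/- and 20.3, 32.4, 23.7 and 23.7 in those labelled HFD WT, with a log2 fold change of 0.56 (SE 0.23, adjusted p = 0.314). For *Col1a1* the values were 8.02, 6.49, 14.7 and 14.4 in the libraries labelled HFD Inpp4b-/-, and 7.56, 7.87, 6.37 and 6.41 in those labelled HFD WT (log2 fold change 0.63, SE 0.26, adjusted p = 0.325). Replicates 3 and 4 labelled HFD Inpp4b-/- carried that difference, since replicates 1 and 2 lay close to the WT range. *Col5a1* ran at 11.9, 7.07, 10.04 and 11.6 CPM in the libraries labelled HFD Inpp4b-/- and at 6.27, 9.10, 7.21 and 6.18 in those labelled HFD WT (log2 fold change 0.50, SE 0.20, adjusted p = 0.302). None of these 3 genes passed the adjusted threshold, and in each the groups overlapped.

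*Col1a2*, the partner chain of *Col1a1*, had 12.6, 11.6, 19.9 and 16.3 CPM in the libraries labelled HFD Inpp4b-/- and 13.0, 11.4, 12.8 and 12.0 in those labelled HFD WT (log2 fold change 0.30, SE 0.17, adjusted p = 0.474). As for *Col1a1*, replicates 3 and 4 were the high libraries. The ratio of *Col1a1* to *Col1a2* counts was 0.561 to 0.885 in the libraries labelled HFD Inpp4b-/- and 0.497 to 0.693 in those labelled HFD WT. Summed over *Col1a1*, *Col1a2*, *Col3a1*, *Col5a1* and *Col5a2*, the level was 72.0, 48.8, 98.2 and 80.6 CPM in the libraries labelled HFD Inpp4b-/- (74.9 ± 20.6, SD, n = 4) and 48.2, 62.6, 52.2 and 49.8 CPM in those labelled HFD WT (53.2 ± 6.47, SD, n = 4). HFD Inpp4b-/- replicate 2 lay inside the WT range for this sum.

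*Col5a3*, another chain of collagen V, was the most variable of the abundant collagens. It had 73.3 and 63.4 CPM in HFD Inpp4b-/- replicates 1 and 2 but 16.6 and 16.1 CPM in replicates 3 and 4, against 34.7, 31.3, 14.6 and 22.7 CPM in the libraries labelled HFD WT. Its log2 fold change of 0.72 had an SE of 0.50 (adjusted p = 0.568). Among the libraries labelled HFD Inpp4b-/-, those high in *Col5a3* were those low in *Col1a1*. *Col27a1*, a fibrillar collagen known from cartilage, had 178, 139, 99.9 and 157 CPM in the libraries labelled HFD Inpp4b-/- and 105, 86.0, 200 and 89.4 CPM in those labelled HFD WT. One WT library, replicate 3, was the highest of all 8 (log2 fold change 0.26, SE 0.28, adjusted p = 0.722), and the value without it was 0.62. *Col5a2*, *Col11a2* and *Col24a1* had log2 fold changes of 0.15, -0.25 and -0.33 with adjusted p of at least 0.753.

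**Figure D3:**
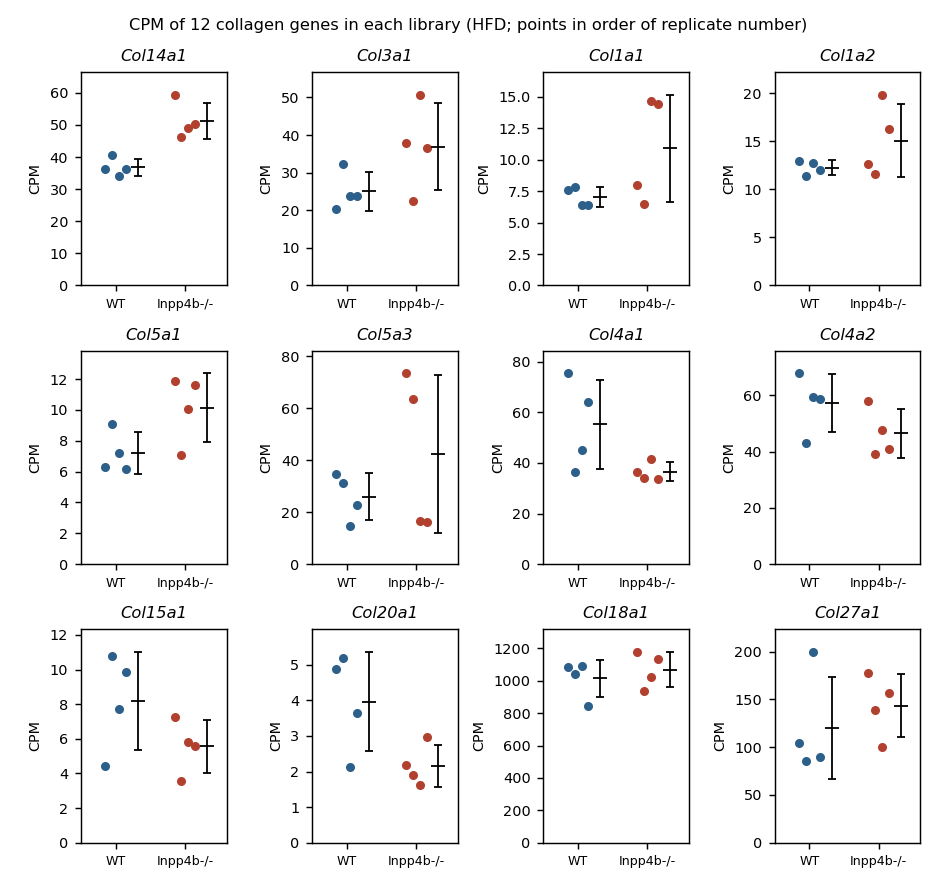
CPM of 12 collagen genes in the 4 libraries labelled HFD WT (blue) and the 4 labelled HFD Inpp4b-/- (red), in order of replicate number, with the mean and SD (n = 4) as black bars. Only *Col14a1* has groups that do not overlap. *Col1a1* has a pair of high libraries (14.7 and 14.4 CPM) and *Col5a3* another pair (73.3 and 63.4 CPM) among those labelled HFD Inpp4b-/-.

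The basement membrane collagens include the paired chains of collagen IV, the sheet-forming collagen beneath endothelium and epithelium. *Col4a1* and *Col4a2* encode the chains of its common form, and they lie head to head on chromosome 8, 70.03 and 69.89 Mb from *Inpp4b* on the same chromosome. In RefSeq and GENCODE alike their first exons overlap by 22 bases at chr8:11312805-11312826, which are printed here on the plus strand, the strand of *Col4a2*, because both transcripts start within them, with a GC box in capitals.
Col4a1 and Col4a2: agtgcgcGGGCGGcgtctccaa
*Col4a1* had 36.4, 34.0, 41.8 and 33.7 CPM in the libraries labelled HFD Inpp4b-/- and 75.4, 36.5, 45.2 and 64.1 CPM in those labelled HFD WT (36.5 ± 3.72 against 55.3 ± 17.7, SD, n = 4 each). The spread lay in the WT group, where replicates 1 and 4 were high and replicate 2 fell within the range of the libraries labelled HFD Inpp4b-/-. Its log2 fold change was -0.60 (SE 0.20, adjusted p = 0.242). Without HFD WT replicate 2 it was -0.77 and passed, with an adjusted p of 0.0836.

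*Col4a2* had 58.1, 39.1, 47.6 and 41.1 CPM in the libraries labelled HFD Inpp4b-/- and 67.8, 43.2, 59.5 and 58.8 CPM in those labelled HFD WT. The order of the WT libraries at the ends was that of *Col4a1*, replicate 1 highest and replicate 2 lowest, and the groups overlapped (log2 fold change -0.30, SE 0.16, adjusted p = 0.441). Counts of *Col4a1* per count of *Col4a2* ran from 0.625 to 0.878 in the libraries labelled HFD Inpp4b-/- and from 0.759 to 1.11 in those labelled HFD WT. The remaining collagen IV genes were sparse. *Col4a3*, *Col4a4* and *Col4a5* had log2 fold changes of 0.16, 0.37 and -0.50 with SE of 0.47 to 0.58, and *Col4a6* was below the filter.

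The multiplexins are basement membrane collagens with interrupted helices, *Col15a1* and *Col18a1*. *Col18a1* had 1176, 936, 1025 and 1136 CPM in the libraries labelled HFD Inpp4b-/- and 1084, 1041, 1089 and 845 CPM in those labelled HFD WT (1068 ± 109 against 1015 ± 115, SD, n = 4 each). The dominant collagen of these livers thus overlapped widely between the genotypes (log2 fold change 0.074, SE 0.12, adjusted p = 0.817), and the sign of this value changed without HFD WT replicate 4. *Col15a1* had 7.27, 3.57, 5.82 and 5.59 CPM in the libraries labelled HFD Inpp4b-/- and 4.43, 10.8, 7.75 and 9.83 CPM in those labelled HFD WT (log2 fold change -0.56, SE 0.29, adjusted p = 0.431).

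Collagen VI forms beaded filaments around cells. *Col6a1* had 5.27, 4.60, 9.07 and 8.71 CPM in the libraries labelled HFD Inpp4b-/- and 6.93, 7.34, 6.33 and 6.07 CPM in those labelled HFD WT. The libraries labelled HFD Inpp4b-/- fell on both sides of the WT values (log2 fold change 0.050, SE 0.23, adjusted p = 0.947), with replicates 3 and 4 high as for *Col1a1*. *Col6a2* and *Col6a3* had log2 fold changes of -0.046 and 0.21, with adjusted p of 0.959 and 0.724. The sparse genes *Col6a5*, *Col6a6*, *Col8a1* and *Col8a2* ranged from -0.66 to 1.57 on the log2 scale with SE of 0.55 to 0.93. *Col8a1*, the highest of these, was counted 30, 9, 13 and 29 times in the libraries labelled HFD Inpp4b-/- and 2, 20, 1 and 0 times in those labelled HFD WT (adjusted p = 0.489). Among the transmembrane and other collagens, *Col7a1* and *Col13a1* had log2 fold changes of -0.13 and -0.51.

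The genes of stellate cell activation had no member past the threshold. *Acta2*, smooth muscle actin and the usual marker of activated stellate cells, had 1.36, 1.603, 1.51 and 2.67 CPM in the libraries labelled HFD Inpp4b-/- and 1.03, 3.46, 1.42 and 3.99 CPM in those labelled HFD WT. The WT libraries divided into a low and a high pair, whose range enclosed all values of the other group (log2 fold change -0.47, SE 0.45, adjusted p = 0.683). The high pair, HFD WT replicates 2 and 4, was also the high pair for the smooth muscle markers *Cnn1*, *Actg2*, *Myh11* and *Myl9*, but not for *Tagln* and *Smtn*. In the libraries labelled HFD WT, *Cnn1* was counted 1, 12, 1 and 10 times, *Actg2* 7, 18, 0 and 17 times, *Myh11* 28, 97, 53 and 72 times and *Tagln* 13, 4, 10 and 7 times. The part of smooth muscle in the *Acta2* values was not tested. *Des*, the muscle-type intermediate filament of rodent stellate cells, had 3.97, 3.94, 4.89 and 4.89 CPM in the libraries labelled HFD Inpp4b-/- and 4.98, 5.42, 3.50 and 7.83 CPM in those labelled HFD WT (log2 fold change -0.30, SE 0.24, adjusted p = 0.625). HFD WT replicate 4 was the highest library for both genes.

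*Tgfb1* had 8.19, 6.52, 6.47 and 6.49 CPM in the libraries labelled HFD Inpp4b-/- and 6.56, 8.54, 5.93 and 11.0 CPM in those labelled HFD WT (log2 fold change -0.21, SE 0.20, adjusted p = 0.693). The receptor gene *Pdgfrb* had 8.74, 8.96, 10.01 and 13.2 CPM in the libraries labelled HFD Inpp4b-/- and 7.97, 10.5, 8.69 and 6.57 CPM in those labelled HFD WT (log2 fold change 0.28, SE 0.19, adjusted p = 0.546). Both differences lay within the spread between mice.

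Of the small matrix proteins that bind collagen fibrils, *Dcn* (decorin) had 99.5, 90.7, 103 and 84.7 CPM in the libraries labelled HFD Inpp4b-/- and 96.9, 121, 83.4 and 110 CPM in those labelled HFD WT (log2 fold change -0.12, SE 0.12, adjusted p = 0.696). *Lum* (lumican) had 6.97, 4.42, 9.46 and 9.97 CPM in the libraries labelled HFD Inpp4b-/- and 7.49, 7.91, 5.86 and 6.49 CPM in those labelled HFD WT (log2 fold change 0.15, SE 0.24, adjusted p = 0.828). *Lum* was highest in HFD Inpp4b-/- replicates 3 and 4, as were *Col1a1* and *Col1a2*. *Dpt* (dermatopontin) had 1.998, 2.44, 2.57 and 2.22 CPM in the libraries labelled HFD Inpp4b-/- and 1.48, 3.56, 1.55 and 2.42 CPM in those labelled HFD WT (log2 fold change 0.034, SE 0.31, adjusted p = 0.972).

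*Lox* and *Timp1* were close to the limit of counting. *Lox* was counted 2, 17, 12 and 8 times in the libraries labelled HFD Inpp4b-/- and 15, 0, 2 and 15 times in those labelled HFD WT, and its log2 fold change of -0.074 had an SE of 0.96. *Timp1* was counted 4, 3, 1 and 13 times in the libraries labelled HFD Inpp4b-/- and 1, 8, 14 and 4 times in those labelled HFD WT (two-sided exact permutation test, p = 0.514). No difference in *Timp1* was found at these counts, and *Syn1* overlaps it on the opposite strand. The 5 other genes below the filter (*Col9a3*, *Col17a1*, *Col4a6*, *Col23a1* and *Col25a1*) had 0 to 17 counts in a library, and in none did the groups stay apart (two-sided exact permutation tests, p from 0.0857 to 0.571, where 0.0286 is the smallest that 4 against 4 can give).

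**Figure D4:**
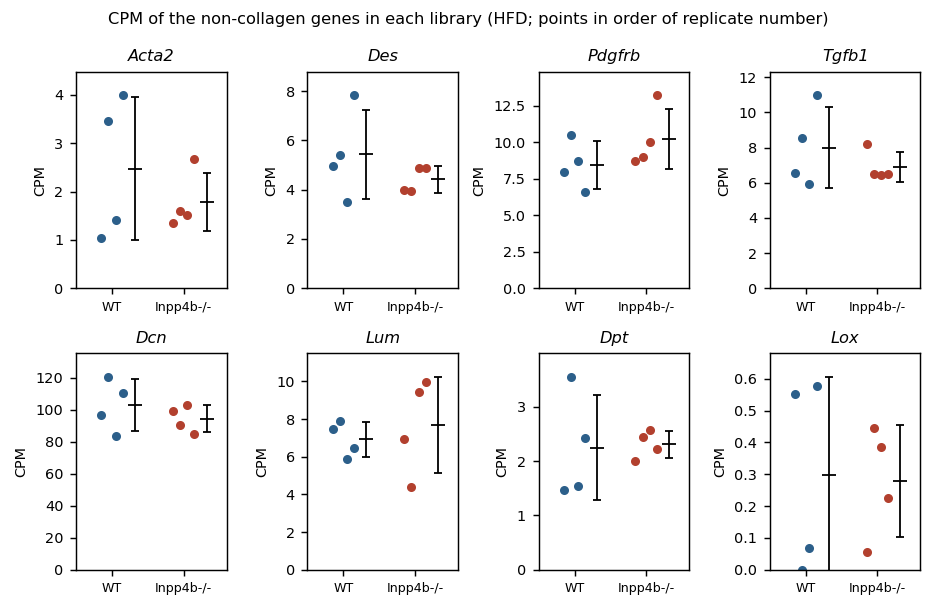
CPM of 8 genes outside the collagen family in the libraries labelled HFD WT (blue) and HFD Inpp4b-/- (red), in order of replicate number, with the mean and SD (n = 4) as black bars. The groups overlap in all 8 panels, and *Acta2* shows a low and a high pair of libraries (1.03 and 1.42 against 3.46 and 3.99 CPM) in the WT group.

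Genes of the same pathway were read from lists written from general knowledge. Of 25 tested collagen-processing enzymes and chaperones, none passed, 11 lay above 0 and 14 below (median log2 fold change -0.038). The most abundant was *P4hb*, the disulfide isomerase subunit of prolyl 4-hydroxylase, with a mean of 1184 CPM in the libraries labelled HFD Inpp4b-/- and 1216 in those labelled HFD WT. The largest separation was that of *Colgalt1*, which adds galactose to collagen hydroxylysine, with 45.4 to 56.7 CPM in the libraries labelled HFD Inpp4b-/- and 33.1 to 38.4 in those labelled HFD WT (log2 fold change 0.42, SE 0.096, adjusted p = 0.112). *P3h1*, a prolyl 3-hydroxylase, had 15.3 to 16.1 CPM against 18.7 to 28.2 (log2 fold change -0.47, adjusted p = 0.173). The other genes of this list with an unadjusted p under 0.05 were *P3h3* (0.55, adjusted p = 0.284), *Plod3* (-0.33, adjusted p = 0.274) and *Loxl4* (-1.32, adjusted p = 0.342).

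The list of TGF-beta and PDGF signalling genes had 5 of 22 tested genes above 0 and 17 below (median log2 fold change -0.20, beside 0.0027 over all tested genes), and none passed. *Tgfbr1*, the type I receptor of TGF-beta, had 27.3 to 28.7 CPM in the libraries labelled HFD Inpp4b-/- and 31.1 to 43.5 in those labelled HFD WT (log2 fold change -0.34, SE 0.11, adjusted p = 0.229). The other receptor genes of TGF-beta, *Tgfbr2* and *Tgfbr3*, had log2 fold changes of -0.31 (SE 0.39) and -0.00051 (SE 0.13). *Tgfbr1* was the 1 gene of the list with an unadjusted p under 0.05. The most abundant gene per kilobase was *Smad4*, the common partner of the signalling Smads (log2 fold change -0.18, adjusted p = 0.525).

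Matrix proteases and inhibitors had 4 of 11 tested genes above 0 and 7 below, and none passed. *Mmp12*, the macrophage elastase, had a log2 fold change of 2.76 (SE 0.82, adjusted p = 0.193) on low levels. It had 0.444, 0.342, 0.515 and 2.36 CPM in the libraries labelled HFD Inpp4b-/-, with replicate 4 far above the others, against 0.0337 to 0.269. Its counts were 16, 13, 16 and 84 in the libraries labelled HFD Inpp4b-/- and 2, 5, 1 and 7 in those labelled HFD WT. *Mmp12* thus passed the filter on low counts only through the group where it was higher, and its p is not read as a difference. *Plat*, tissue plasminogen activator, had a log2 fold change of 1.0 (adjusted p = 0.322). *Mmp15*, a membrane-bound metalloprotease, had 54.0 to 63.1 CPM in the libraries labelled HFD Inpp4b-/- against 67.7 to 101 (log2 fold change -0.45, adjusted p = 0.173), and the inhibitor *Timp3* had a log2 fold change of -0.46 (adjusted p = 0.310). *Mmp19* was the most abundant of this list (log2 fold change -0.13, adjusted p = 0.800). Of 29 other matrix protein genes tested, 12 lay above 0 and 17 below, none passed, and *Fbln5* (0.68, adjusted p = 0.252), *Ogn* (-0.98, adjusted p = 0.202) and *Fbln1* (-1.15, adjusted p = 0.356) had an unadjusted p under 0.05. The most abundant of these was *Vtn*, vitronectin, a hepatocyte product (log2 fold change -0.028, adjusted p = 0.936).

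The level of matrix genes in bulk liver moves with the cells sampled, so markers of the cell types were read beside them. Hepatocyte markers were abundant in every library, with *Alb* the highest. The 10 resting stellate cell markers summed to 218 to 274 CPM in the libraries labelled HFD Inpp4b-/- and 186 to 251 in those labelled HFD WT, and 4 of the 9 tested lay above 0. Of these, *Lrat*, the retinyl ester synthase of stellate cells, had 16.0, 12.2, 11.3 and 12.9 CPM against 6.38, 11.2, 7.51 and 6.45 (log2 fold change 0.73, SE 0.20, adjusted p = 0.164). *Ecm1*, the largest single part of these sums, had 91.2 to 118 CPM against 70.1 to 89.4 (log2 fold change 0.37, SE 0.11, adjusted p = 0.189). In the libraries labelled HFD Inpp4b-/-, its mean was 104.6 CPM of a mean sum of 244.7. Which cells made its RNA was not tested. *Reln* (log2 fold change -0.059) and *Hgf* (-0.023) were close to 0, *Colec11* stood at 0.22, *Cygb* at -0.36 and *Ngfr* at -0.30, so the defining markers of resting stellate cells did not lie on one side. *Gfap* was below the filter.

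Portal fibroblast markers had 2 of 5 tested genes above 0, with sums of 110 to 117 CPM against 106 to 140, most of it *Dpp4*, which hepatocytes and other cells also express. *Thy1* was at 0.736 to 1.39 CPM against 0.876 to 1.04, and *Gli1* was below the filter. Smooth muscle markers had 0 of 3 tested genes above 0, and their sums were 7.23 to 9.94 CPM against 7.78 to 13.1. *Cnn1*, below the filter, had 0, 0, 1 and 0 reads in the libraries labelled HFD Inpp4b-/- and 1, 12, 1 and 10 in those labelled HFD WT. It thus had a row only through the group where it was higher, and this is not read as a difference. *Tagln*, also below the filter, had a mean of 0.267 CPM against 0.303, and *Smtn* had a log2 fold change of -0.015. Endothelial markers had 3 of 8 above 0, with sums of 120 to 176 CPM against 137 to 172. The 7 macrophage markers all lay above 0 (median log2 fold change 0.44) and none passed, with sums of 104 to 187 CPM against 50.1 to 141. Over all tested genes, 7493 of 14866 lay above 0, and markers of one list are not independent of each other. The macrophage sums were 50.1, 139, 93.2 and 141 CPM in the libraries labelled HFD WT, so replicate 1 set the low end. Cholangiocyte markers had 4 of 6 above 0 and summed to 30.3 to 41.1 CPM against 24.0 to 32.3. *Spp1*, which other cell types express too, was the highest of them, with 23.9 to 34.0 CPM against 17.3 to 22.8 (log2 fold change 0.54, adjusted p = 0.141). *Sox9*, a transcription factor of bile duct cells, lay on the other side of 0, with 1.75 to 3.6 CPM against 2.62 to 5.91 (log2 fold change -0.71, adjusted p = 0.350). *Krt19* had a log2 fold change of 0.90 (SE 0.41, adjusted p = 0.368), *Krt7* of 0.49, *Epcam* of 0.39 and *Tspan8* of -0.094. The 5 mesothelial markers all lay below 0 (median -0.74) and none passed, at sums of 2.14 to 10.8 CPM against 4.76 to 14.7. Hepatocyte markers had 2 of 6 above 0, with sums of 74760 to 93520 CPM against 71720 to 76720. *Ttr*, transthyretin, had 6716 to 7766 CPM against 4945 to 6109 (log2 fold change 0.31, adjusted p = 0.266), and no marker passed in any cell type list. The part of these cell types in the values of *Col14a1* and the fibrillar collagens was not tested.

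**Figure D5:**
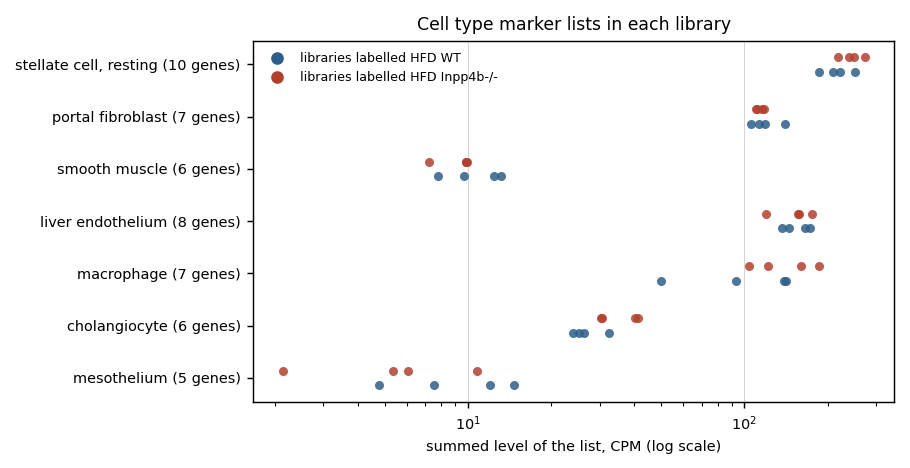
Summed CPM of 7 cell type marker lists in each library, on a log axis, with blue points for libraries labelled HFD WT and red points for libraries labelled HFD Inpp4b-/-. The sums of the genotypes overlap in every list, and macrophage markers reach from 50.1 CPM in a WT library to 187 CPM in a library labelled HFD Inpp4b-/-.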

How the data were processed

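RNA-seq of whole liver covered 8 male mice, 4 per genotype, grouped by the sample labels. The authors used HISAT2 with GRCm38 to align paired reads of 150 bp and HTSeq to assign them to genes, and deposited raw counts for 18095 genes, all of which had a read in every library of one or both genotypes. The labels name rRNA removal before library preparation. Which annotation and strand setting HTSeq was run with is not given in the sources used here. The deposited normalized table was not used. Symbols, coordinates and union exon lengths were taken from GENCODE M21, where each of the 18095 identifiers was found, and promoters came from RefSeq (GRCm38.p6). Collagen genes such as *Col2a1*, *Col10a1* and *Col11a1*, and the adipocyte markers listed, had no row and were not analysed here.

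The 14866 genes kept by filterByExpr were fitted together in edgeR 4.0.16 with TMM scaling, the quasi-likelihood functions glmQLFit and glmQLFTest, and no covariate. A gene passed when its p, adjusted over all of them by Benjamini-Hochberg, was under 0.10 and its fold change over 1.3. The 6 genes below the filter were compared by a two-sided exact permutation test over 70 arrangements, on log2(CPM + 0.1). Counts of 0 and of few reads carry counting error, and library totals of 25893430 to 36662531 set that limit. DESeq2 1.42.0, 2 other scalings, other filters and thresholds, fits without 1 library and a fit with a replicate block were run as alternatives. The software was R 4.3.3, Python 3.11.15 and scipy 1.17.1. Libraries of one group differed by far more than sampling noise, measured for each pair as chi-squared per degree of freedom of their counts. Within HFD Inpp4b-/-, replicates 1 and 2 were the closest pair (32) and replicates 3 and 4 the next (50.7). The other pairs of that group had 63.2 to 94.7, and pairs of HFD WT 69.2 to 109. Whether the close pairs share a litter was not tested.

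The genes, lists and tests were chosen with earlier results of these data known. Values in every library are given for the 9 genes outside the collagen family, the 12 collagen genes with the highest level per kilobase, genes with an unadjusted p under 0.05 and genes on the chromosome of *Inpp4b*. *Col8a1* and ranges of other genes were added after their values were seen. Of the pathway lists, genes with an unadjusted p under 0.05 and the most abundant gene are named. Of the cell type lists, the summed level and genes with an unadjusted p under 0.05 are given. Single markers are also given for all but the endothelial, macrophage and mesothelial lists.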

Additional observations from a re-analysis of the deposited data

Results flagged for a closer look

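In groups of 4 libraries, a library was taken as standing apart when its gap to the nearest other, as a share of the range of its group, exceeded the critical value of Dixon. For normally distributed values, chance alone gives about 1 in 20 groups, or 4.3 of the 86 groups of these 43 genes. Here, 7 stood apart. The rule was applied to CPM without a log scale, and sparse genes have a floor at 0, so that rate may not hold for them. *Col27a1* was 199.5 CPM in HFD WT replicate 3, with the next WT library at 104.8. *Tgfb1* was 8.19 CPM in HFD Inpp4b-/- replicate 1, where the other 3 lay near 6.5 CPM (nearest 6.52). The remaining ones are sparse genes. *Col6a5* was 1.11 CPM in HFD Inpp4b-/- replicate 1, *Col8a1* was 0.630 CPM in HFD WT replicate 2, and *Col9a3* was 0.422 CPM in HFD WT replicate 4. *Col4a6* and *Col25a1* were 0.342 and 0.263 CPM in HFD Inpp4b-/- replicate 2.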

How the results depend on the processing

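*Col14a1* was the 1 gene of the 37 that passed, and it also passed with DESeq2, with both other normalizations and with both other filters. In the main edgeR fit, the count of genes that passed was 0 at an adjusted p under 0.05 and 0 at a fold change over 2. These stricter limits were not applied to the other fits. With DESeq2 the adjusted p of *Col14a1* was 0.00565. The count ran from 0 to 3 when 1 library was left out, being 0 for 7 libraries and 3 (*Col14a1*, *Col4a1* and *Col8a1*) without HFD WT replicate 2. Each row of the deposited counts had a read in every library of one genotype, which *Col8a1* met only in HFD Inpp4b-/-. HFD WT replicate 2 held 20 reads of *Col8a1* and the other WT libraries 2, 1 and 0, so its call there is not read as a difference. The count at an unadjusted p under 0.05 ran from 3 to 7 in those fits, with 3 without HFD Inpp4b-/- replicate 3, HFD WT replicate 1 or HFD WT replicate 4. Over all genes, 174 passed, against 688 with DESeq2, 71 at an adjusted p under 0.05, 83 at a fold change over 2 and 53 to 345 without 1 library.

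Libraries that share a replicate number were not paired, since the deviations of libraries with the same number correlated at -0.17 to -0.010. A replicate block in the fit left 26 genes past the thresholds and 0 of those described here, and *Col14a1* had a log2 fold change of 0.47 (adjusted p = 0.296).

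The median log2 fold change of the genes tested was above 0 in all 14 other fits, but it fell from 0.074 to 0.0045 without HFD Inpp4b-/- replicate 4 and 0.0082 without replicate 3, and was 0.18 without replicate 2. Of 21 genes named, 17 kept their sign in every fit, though some came close to 0. Without HFD WT replicate 4, *Tgfb1* was -0.020, *Des* -0.068 and *Acta2* -0.15. *Lum* was 0.00070 without HFD Inpp4b-/- replicate 4, and *Col5a3* ran from 0.31 to 0.99 without 1 library. The sign of *Col18a1* changed without HFD WT replicate 4 (-0.0038, up to 0.13 without another library). *Col6a1* changed sign with the block (-0.0051) and without HFD Inpp4b-/- replicate 3 (-0.11) or 4 (-0.080; at most 0.20 without another library). *Dpt* did so without HFD Inpp4b-/- replicate 3 (-0.021), HFD WT replicate 1 (-0.12) or 3 (-0.11; at most 0.34). *Lox* did so with the block (0.24) and without HFD Inpp4b-/- replicate 1 (0.26) or 4 (0.013) or HFD WT replicate 1 (0.42) or 4 (0.46; at least -0.51). The causes were not tested. Of the 6 genes below the filter, 0 had p under 0.05 in the exact test and 1, *Col23a1*, in edgeR with every gene of at least 1 count, a setting added after the data were seen. *Col23a1* was counted 4, 13, 1 and 2 times in the libraries labelled HFD Inpp4b-/- and 1, 0, 0 and 1 times in those labelled HFD WT. It thus had a row only through the group where it was higher, and its p is not read as a difference. Depth limits the genes with few reads: 9 tested genes had a median under 50 counts, and their log2 fold changes ran from -0.66 to 1.57 with adjusted p of at least 0.489.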
